A study of Mus musculus with 20 samples.

Results

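Wheel running was compared with a sedentary life in the livers of female mice eating the vehicle diet, which carried no contraceptive. The libraries were chosen by their group label: the 5 labelled Con.VWR (vehicle diet, voluntary wheel running, called running below) against the 5 labelled Con.Sed (vehicle diet, sedentary), 10 of the 20 libraries of the series. Each library came from the liver of 1 mouse, so the replicates were separate animals. The other 10 libraries, 5 sedentary and 5 running, came from mice fed oral combined contraceptives (OC). They entered the fit that estimated the spread of each gene, and they served for the comparison of running between the diets. Strain, age, the length and distance of running, and the hours between the last run and tissue collection are not given in the sources used here. The labels name no batch.

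The liver meets much of the fuel demand of exercise. It breaks down glycogen and makes glucose while muscle works, and it rebuilds glycogen and lipid when food returns. Insulin drives the refilling. For lipid it acts in part through the transcription factor SREBP1 and genes such as Fasn (fatty acid synthase) and Scd1 (a desaturase). The related factor SREBP2 acts mainly on genes of cholesterol synthesis. Handling stress and short fasts act on many of the same genes within hours, as do feeding times.

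The 10 libraries held 10883936 to 16134618 counts over the genes with intact lines, and 10207 genes passed the filter on low counts. Hepatocyte transcripts dominated: Alb, which encodes albumin, took 11% to 14.2% of the counts of a library. One sedentary library, replicate 2, stood apart. It held 352 genes more than 2-fold above the median of the other 9 libraries and 156 more than 2-fold below it, against 16 to 45 and 11 to 55 in the others. On the first principal component of the 10 libraries (31.9% of the variance) it lay at 55.4, and the other 9 lay between -14.4 and 0.4. Its high genes included Mmp12, a macrophage elastase (57.1 CPM against at most 1.84 in the other 9; CPM is the count scaled to the size of the library), and Gpnmb, a gene of lipid-laden macrophages (449 counts against at most 11). Mup20, a male-biased urinary protein, was at 593.4 CPM against 27.0 to 105.1. Mup22, another urinary protein gene, was at 0.956 CPM against 12.7 to 49.8. In 2 running libraries genes of other organs were found: replicate 2 held 396 counts of Mb (myoglobin, a muscle protein), against 0 to 7 in the other 9, and replicate 5 held 216 counts of Pnlip (pancreatic lipase), against 0 to 2. Results were also computed without sedentary replicate 2.

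**Figure D1:**
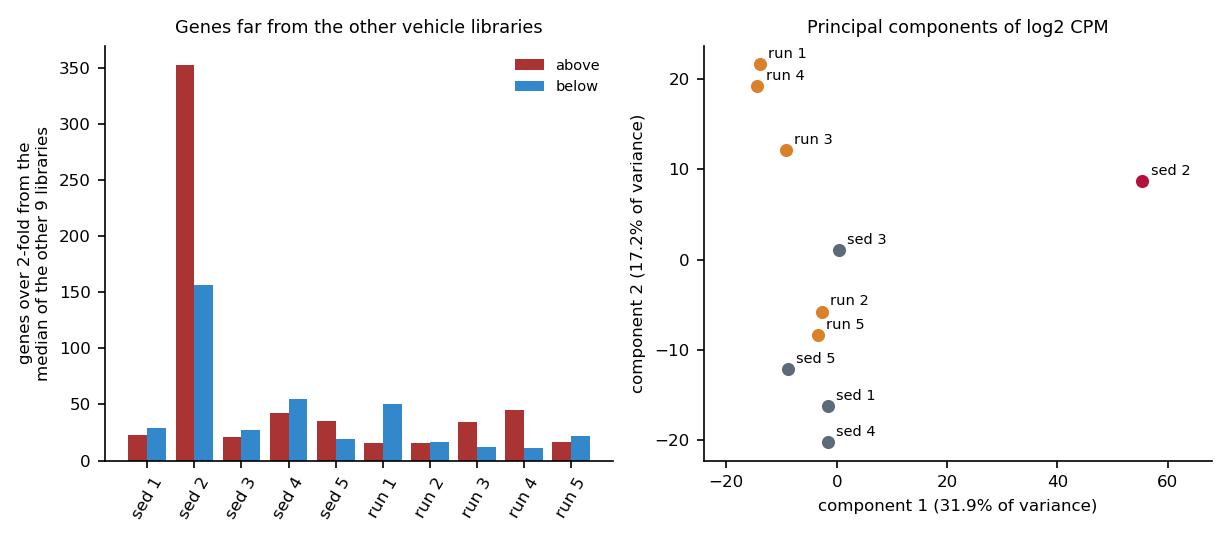
Left, the number of genes (of 9609 with at least 1 CPM) in each vehicle-diet library that lay over 2-fold above (red) or below (blue) the median of the other 9 libraries; right, the first and second principal components of log2 CPM, with sedentary libraries in grey, running libraries in orange and sedentary replicate 2 in red. Sedentary replicate 2 had 352 genes above and 156 below, and lay at 55.4 on component 1, while running replicates 1, 3 and 4 lay at 12.1 to 21.6 on component 2.

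No gene could be called different between the livers of running and sedentary mice in the main test. In edgeR's quasi-likelihood test 0 of 10207 genes passed a Benjamini-Hochberg adjusted p of 0.05 (0%), and the smallest adjusted p was 0.128. At an unadjusted p under 0.05 there were 1414 genes (13.9%), 705 higher in running mice (6.91%) and 709 lower (6.95%). Without sedentary replicate 2 the test also called 0 of 10240 genes (0%), with a smallest adjusted p of 0.255 and 1077 genes at an unadjusted p under 0.05 (10.5%), 549 higher (5.36%) and 528 lower (5.16%). limma voom called 0 genes without and with sample weights, with 1343 and 1492 at an unadjusted p under 0.05. DESeq2 called 42 genes (0.412% of 10190), 22 higher and 20 lower, and 9 without sedentary replicate 2 (0.0879% of 10234), of which 6 were shared with the 42.

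The data bounded most differences to a small size. For the median gene the 95% interval of the log2 fold change reached 0.30 to either side of the estimate. Among the 6550 genes with at least 10 CPM, the whole interval lay within 2-fold for 97.6% and within 1.5-fold for 84.2%. Only 129 genes had an estimate beyond 2-fold, 32 higher and 97 lower in running mice. Of the 97, sedentary replicate 2 was the highest of the 10 libraries in 74. Without that library 79 genes lay beyond 2-fold, 39 higher and 40 lower.

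**Figure D2:**
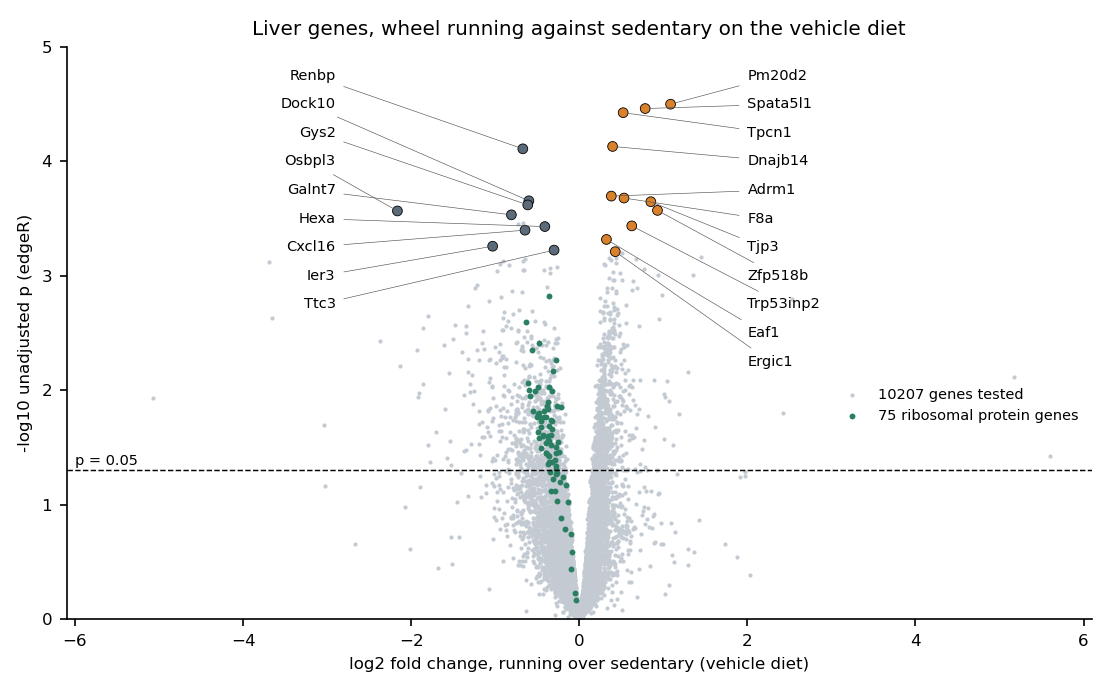
Each point is 1 of 10207 genes, with the log2 fold change of running over sedentary on the vehicle diet on the horizontal axis and -log10 of the unadjusted edgeR p on the vertical axis. The 20 named genes have black outlines (orange higher, grey lower in running mice), the 75 cytosolic ribosomal protein genes are green and all lie left of 0, and the dashed line is at an unadjusted p of 0.05.

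Since no gene was called, the 20 genes with the smallest unadjusted p were named, among genes of at least 1 CPM for which every running library lay on 1 side of the sedentary mean. None of them passed the adjusted threshold (adjusted p from 0.128 to 0.205 in edgeR), and having been picked by their p they are a description. In 11 the level was higher in running mice and in 9 it was lower. Running and sedentary libraries did not overlap in 16 of the 20, against 1.09% of all genes with every running library above every sedentary one and 0.921% with every one below. The way the 20 were picked favours genes without overlap, so the 16 are no further evidence. All 20 kept their direction when any 1 of the 10 libraries was left out, which genes picked in this way mostly will. Their adjusted p then ran from 0.0513 to 0.516. DESeq2 called 19 of them, and 6 without sedentary replicate 2.

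Gys2 encodes the liver's glycogen synthase (chromosome 6, 142422613 to 142473109, minus strand; GENCODE vM21 on GRCm38). Its level was 438.9, 356.7, 259.7, 352.1 and 341.5 CPM in sedentary replicates 1 to 5, and 259.7, 233.9, 185.0, 223.2 and 241.7 CPM in running replicates 1 to 5. Every running library lay below every sedentary one, but the lowest sedentary and the highest running library differed only beyond the digits given. Means were 349.8 ± 63.6 and 228.7 ± 27.8 CPM (SD, n = 5; log2 fold change -0.61, SE 0.14, adjusted p = 0.205), and the log2 fold change was -0.61 also without sedentary replicate 2. On the OC diet it was -0.32.

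The 3 smallest p-values belonged to genes with higher levels in running mice. Tpcn1, an endolysosomal cation channel (chromosome 5, 120534153 to 120588673, minus strand), was at 96.5, 66.3, 75.3, 89.2 and 72.5 CPM in the sedentary libraries and 116.5, 108.5, 109.1, 126.2 and 113.8 CPM in the running ones. No running library came down to the sedentary range (log2 fold change 0.52, SE 0.10, adjusted p = 0.128, and 0.46 without sedentary replicate 2). Pm20d2, a peptidase of the M20 family (chromosome 4, 33174230 to 33189737, minus strand), was at 2.65, 1.04, 1.99, 1.83 and 1.77 CPM in sedentary mice and 3.93, 3.39, 4.88, 3.58 and 4.0 CPM in running mice, again with no overlap. Its log2 fold change was 1.09 (SE 0.21, adjusted p = 0.128) and 0.94 without sedentary replicate 2. Spata5l1, an ATPase of the AAA family, averaged 3.85 ± 0.543 CPM in sedentary and 6.66 ± 0.804 CPM in running mice (SD, n = 5; log2 fold change 0.78, adjusted p = 0.128).

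The other genes with higher levels had varied roles. Dnajb14, a co-chaperone of the endoplasmic reticulum membrane, averaged 28.5 ± 1.12 CPM in sedentary mice and 37.5 ± 4.23 CPM in running mice. Adrm1, a ubiquitin receptor of the proteasome, averaged 65.9 ± 4.92 and 85.8 ± 7.91 CPM. Trp53inp2, which takes part in autophagy, was at 278.5, 198.4, 238.9, 280.6 and 245.3 CPM in sedentary mice and 301.5, 369.1, 445.8, 398.8 and 399.1 CPM in running mice, with every running library above every sedentary one. Its log2 fold change was 0.62 (SE 0.15, adjusted p = 0.205). Ergic1, a protein of the compartment between endoplasmic reticulum and Golgi, averaged 63.1 ± 7.70 and 85.0 ± 12.9 CPM with overlapping libraries, and Tjp3, a tight junction scaffold, 14.2 ± 3.66 and 25.6 ± 8.78 CPM, also overlapping. The rest of this side were F8a (a partner of huntingtin), Zfp518b (a zinc finger protein) and Eaf1 (a partner of the ELL elongation factor), with log2 fold changes of 0.53, 0.93 and 0.32.

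The genes with lower levels beside Gys2 also had varied roles. Hexa, the alpha subunit of lysosomal beta-hexosaminidase, averaged 97.6 ± 17.8 CPM in sedentary and 73.5 ± 4.53 CPM in running mice (log2 fold change -0.41, and -0.30 without sedentary replicate 2, its highest library at 127.6 CPM). Renbp, an N-acetylglucosamine epimerase, averaged 10.2 ± 1.68 and 6.40 ± 0.761 CPM, and Galnt7, an enzyme of O-glycosylation, 3.38 ± 0.831 and 1.92 ± 0.285 CPM, both without overlap. Cxcl16, a chemokine and scavenger receptor, averaged 22.5 ± 6.07 and 14.3 ± 1.99 CPM, and Dock10, an activator of small GTPases, 13.2 ± 1.84 and 8.68 ± 1.63 CPM. Ttc3, a ubiquitin ligase, differed least, at 46.0 ± 4.11 and 37.3 ± 0.862 CPM (log2 fold change -0.30). The range of its running libraries was 36.4 to 38.3 CPM, below the lowest sedentary value of 41.2 CPM.

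Osbpl3, an oxysterol-binding protein, shows what 1 library does to a mean. It was at 5.96, 38.2, 8.13, 7.67 and 4.50 CPM in sedentary mice and 1.39, 2.47, 3.15, 2.31 and 5.00 CPM in running mice. The value of 38.2 CPM was that of sedentary replicate 2. The log2 fold change was -2.16 (SE 0.50, adjusted p = 0.205) and became -1.21 without that library, where the unadjusted edgeR p was 0.00108.

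**Figure D3:**
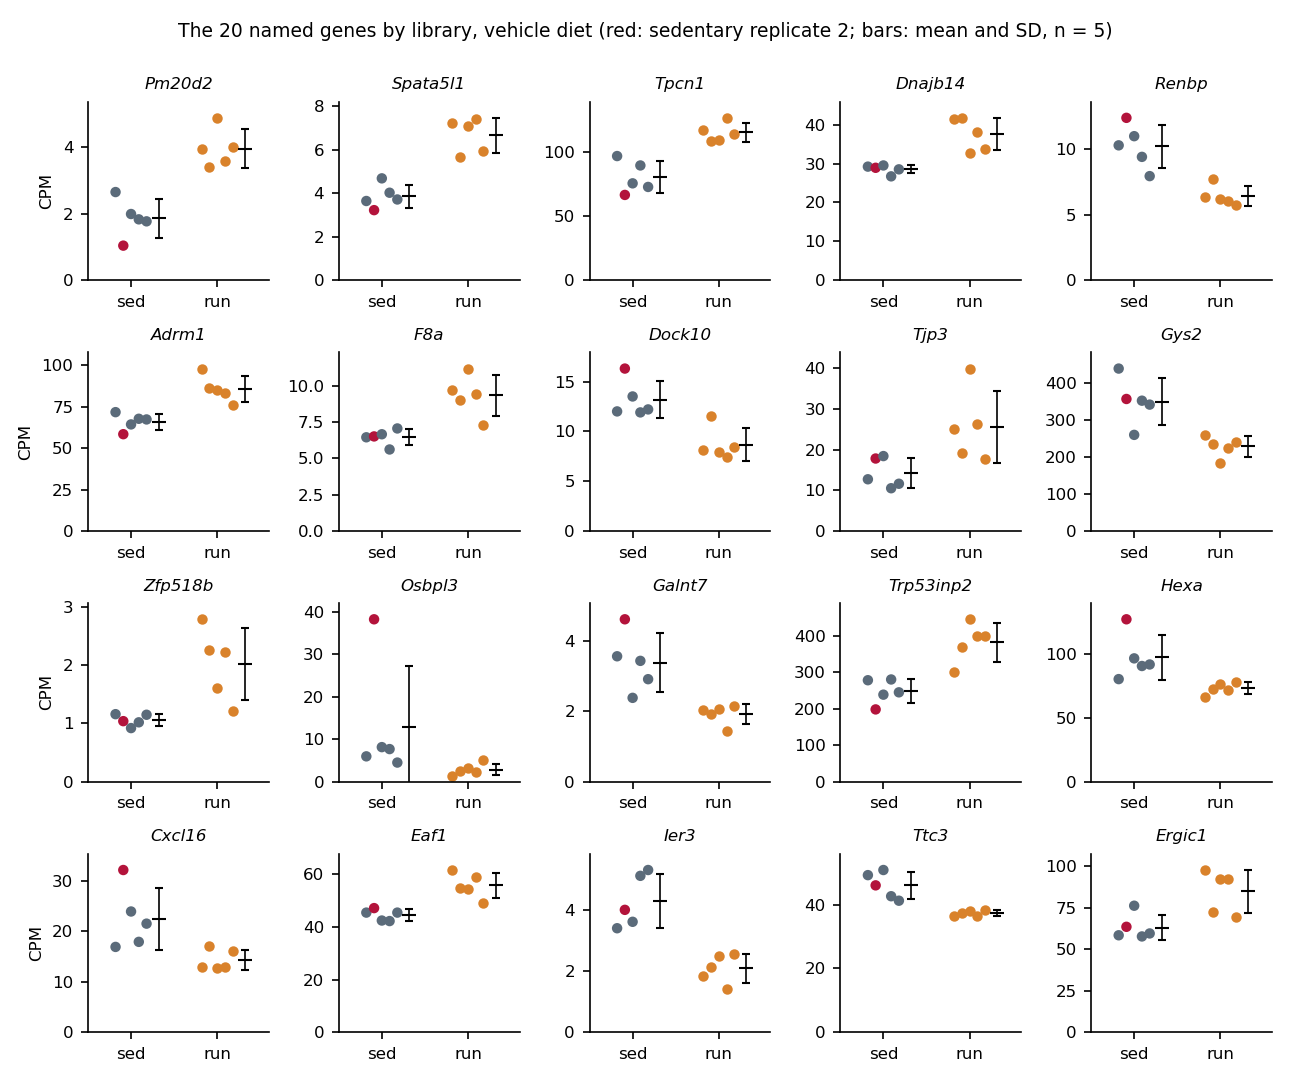
CPM of the 20 named genes in each vehicle-diet library, sedentary on the left of each panel (grey, with sedentary replicate 2 in red) and running on the right (orange), with the mean and SD of 5 mice beside the points; the lower end of the Osbpl3 bar is cut at 0. In 16 panels no running library reaches the sedentary range, and in the Osbpl3 panel replicate 2 lies at 38.2 CPM.

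The glucose and insulin genes beside Gys2 gave mixed values. Of 16 tested members of the glucose, glycogen and gluconeogenesis list 1 was higher and 2 were lower at an unadjusted p under 0.05. Of all genes 6.91% were higher and 6.95% lower at that p. The median log2 fold change of the list was 0.01, against -0.01 over all genes. The 2 most abundant members, Fbp1 and Ldha, of gluconeogenesis and lactate metabolism, had log2 fold changes of -0.01 and -0.00 with 95% intervals of -0.25 to 0.23 and -0.37 to 0.36 (-0.01 and 0.18 without sedentary replicate 2). Igfbp2, a binding protein for insulin-like growth factors, was at 918.1, 1441.7, 1044.9, 1137.0 and 1123.8 CPM in sedentary mice and 724.4, 529.9, 613.7, 715.8 and 1083.3 CPM in running mice, so that only running replicate 5 overlapped (log2 fold change -0.63, adjusted p = 0.228). Txnip, a glucose-responsive thioredoxin inhibitor, was at 764.3, 391.0, 544.3, 1022.5 and 293.3 CPM in sedentary mice and at 448.4, 376.5, 351.0, 357.7 and 383.7 CPM in running mice, where the spread was smaller (log2 fold change -0.65, adjusted p = 0.344, and -0.78 without sedentary replicate 2).

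All 24 tested genes of cholesterol synthesis and SREBP2 targets had a higher estimate in running mice, against 47.3% of all genes, with a median log2 fold change of 0.38, but only 1 had an unadjusted p under 0.05. That gene was Srebf2, which encodes SREBP2 itself and was singled out after its values were seen. It was at 72.6, 64.5, 85.2, 60 and 64.7 CPM in sedentary mice and 106.8, 69.1, 101.5, 95.2 and 86.0 CPM in running mice (log2 fold change 0.40, adjusted p = 0.228). The mean log2 CPM of the list ran from 6.05 to 7.36 over sedentary libraries and from 6.40 to 7.46 over running ones, so the libraries of a group differed by more than the groups did. The median ran from 0.25 to 0.60 when 1 vehicle library was left out. Without sedentary replicate 2 it was 0.26, with 21 members higher and 3 lower. On the OC diet the median was -0.23, with 5 higher and 19 lower.

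The genes that make fatty acids and triglycerides behaved much the same way. Of 21 tested 16 had a higher estimate and 5 a lower one, with a median of 0.31 (0.26 without sedentary replicate 2, and 0.13 to 0.48 over all fits that left out 1 vehicle library), and 0 had an unadjusted p under 0.05 in edgeR. Fasn was at 602.7, 412.1, 1263.6, 569.7 and 1862.6 CPM in sedentary mice and 1487.6, 1537.8, 1890.5, 2873.6 and 558.8 CPM in running mice. Its log2 fold change of 0.83 had a 95% interval of -0.34 to 1.99. Scd1, the desaturase that makes oleate, had its lowest and highest sedentary values at 1395.9 and 18473.7 CPM and its lowest and highest running values at 4073.3 and 24795.6 CPM, with a 95% interval of -0.36 to 1.82. At such a spread between mice the interval of either gene included both 0 and a 2-fold higher level in running mice. The list of fatty acid oxidation, with the targets of PPARA, had 10 of 26 tested genes higher, with a median of -0.05 (-0.03 without sedentary replicate 2).

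The most uniform difference lay in the genes of the cytosolic ribosome. Of 75 ribosomal protein genes tested (79 listed) all 75 had a lower estimate in running mice, against 52.6% of all genes, and 57 had an unadjusted p under 0.05, against 6.95% of all genes. The median log2 fold change was -0.36 and the range -0.63 to -0.04. No member passed the adjusted threshold in edgeR, and DESeq2 called 0. In 12 of the 75 every running library lay below every sedentary one, against 0.921% of all genes. Without sedentary replicate 2 again 75 of 75 were lower, 52 at an unadjusted p under 0.05, and the median was -0.35. Ribosomal protein genes have many near-identical pseudogenes, and how reads shared with them were counted is not given in the sources used here, so single members are uncertain.

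The start regions of 4 of these genes are shown because their transcripts are known for a pyrimidine-rich start that ties their translation to growth signals. They are the 4 with the smallest p among those in the RefSeq table (GRCm38.p6), given 5′ to 3′ on the gene's strand, from 40 bases before the annotated start to 20 after it. Capitals mark CTTTC or CTTTT or CTTCC between 10 bases before and 20 bases after the start.
Rpl36a (chrX:134585614-134585673, plus strand): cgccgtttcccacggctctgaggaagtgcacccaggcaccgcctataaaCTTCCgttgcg
Rpl12 (chr2:32961672-32961731, plus strand): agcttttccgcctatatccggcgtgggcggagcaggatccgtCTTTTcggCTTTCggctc
Rpl38 (chr11:114668540-114668599, plus strand): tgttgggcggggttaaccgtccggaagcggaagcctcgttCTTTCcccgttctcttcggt
Rps15a (chr7:118116128-118116187, minus strand): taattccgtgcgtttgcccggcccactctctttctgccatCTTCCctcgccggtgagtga

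These letters and this window were chosen after the sequences were seen, and only the gene's strand was searched. One of them was found in 24 of the 55 tested ribosomal protein genes with an entry (43.6%) and in 1292 of 7854 tested genes with an entry (16.5%). Among genes outside the ribosomal list the median log2 fold change was -0.03 with a match and -0.01 without, and among ribosomal protein genes -0.38 and -0.34. A match is a description of the letters only.

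Rpl36a, a protein of the large subunit, was at 151.3, 158.9, 147.7, 142.3 and 180.3 CPM in sedentary mice and 110.3, 127.6, 125.1, 109.4 and 133.5 CPM in running mice, with no overlap (log2 fold change -0.37, SE 0.10, adjusted p = 0.226). Rpl12, of the same subunit, was at 363.2, 482.2, 316.6, 384.4 and 467.6 CPM and at 195.6, 326.1, 254.5, 221.1 and 303.8 CPM. It had the lowest estimate of the list, -0.63, and running replicate 2 overlapped the sedentary range. Over the whole list the mean log2 CPM was 8.48, 8.51, 8.34, 8.46 and 8.71 in sedentary replicates 1 to 5 and 7.85, 8.41, 8.11, 7.98 and 8.35 in running replicates 1 to 5. Running replicates 1, 3 and 4 lay below every sedentary library, and running replicates 2 and 5 lay within the sedentary range. The same 3 running libraries were the highest of the 10 on the second principal component, at 12.1 to 21.6 against -20.2 to 8.65 in the other 7.

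On the OC diet the same 75 genes all had a higher estimate in running mice, with a median of 0.27. Length moved with the result. Genes outside the list were divided by exonic length into 5 groups of like size, and the group of shortest genes had a median of -0.09 on the vehicle diet and 0.10 on the OC diet, while the group of longest genes had 0.04 and -0.08. The ribosomal protein genes are short, with a median exonic length of 1781 bases against 4310.5 for all genes. With a smooth length term fitted for each library 73 of the 75 were lower, 56 at an unadjusted p under 0.05 (against 7.88% of all genes), and the median was -0.30. That fit called 2 of 10207 genes in all (0.0196%), neither a ribosomal protein gene. What sets the length trend was not tested. Of 77 genes of the mitochondrial ribosome 21 were higher and 56 lower (median -0.10, and -0.06 with the length term). Nuclear genes of respiratory complex I had 30 of 36 lower (median -0.10, and -0.03 with the length term). Those of complexes II to V had 10 of 14 lower (median -0.19, and -0.13 with the length term). Without sedentary replicate 5 the medians were -0.06 for the mitochondrial ribosome, -0.02 for complex I and -0.12 for complexes II to V. On the OC diet 71 of the 77, 33 of the 36 and 14 of the 14 had a higher estimate.

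**Figure D4:**
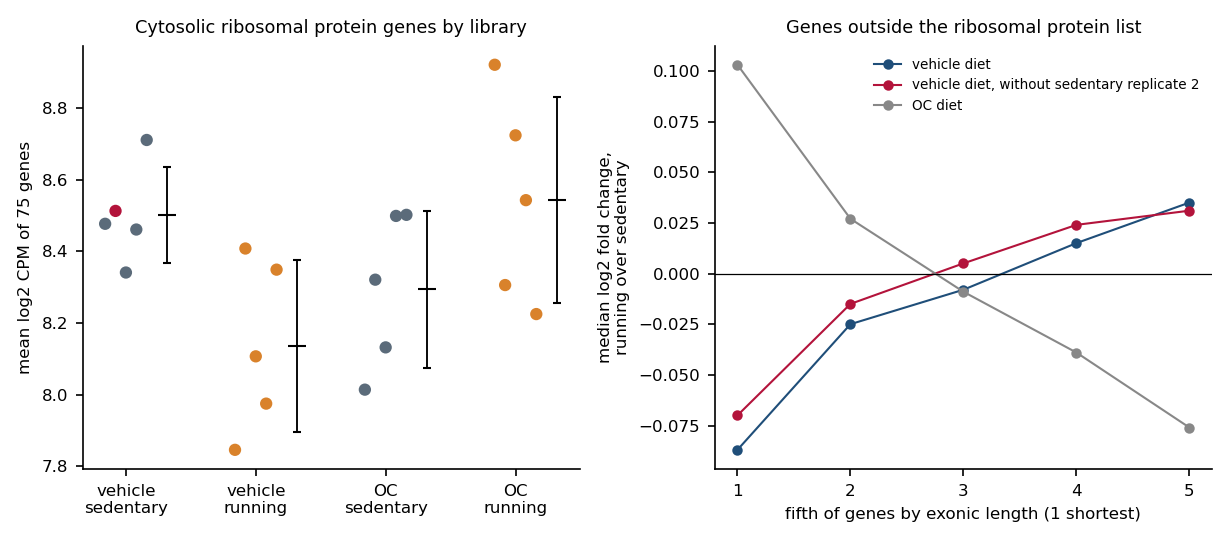
Left, mean log2 CPM of 75 cytosolic ribosomal protein genes in each of the 20 libraries by diet and activity (sedentary grey, running orange, vehicle sedentary replicate 2 red), with the mean and SD of 5 mice; right, median log2 fold change of running over sedentary in 5 groups of the other genes by exonic length. Running lies lower on the vehicle diet and higher on the OC diet, with overlapping libraries in both, and the medians by length slope from -0.09 to 0.04 on vehicle and from 0.10 to -0.08 on OC.

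Most chaperone genes had slightly higher estimates in running mice. Of 15 heat shock genes and cytosolic chaperones 12 had a higher estimate, 4 of them at an unadjusted p under 0.05 (background 6.91%), and the median was 0.21, also without sedentary replicate 2. The 4 were Hsph1, Bag3, Fkbp4 and Hspa4l, named after their values were seen. Hspa4l, a co-chaperone of the HSP110 family, was at 26.8, 30.1, 32.4, 22.3 and 32.1 CPM in sedentary and 42.6, 33.5, 40.6, 50.6 and 34.7 CPM in running mice, with no overlap (log2 fold change 0.49, adjusted p = 0.242). The 2 most abundant members, Hspa8 and Hspd1, had log2 fold changes of -0.00 and 0.05. For folding in the endoplasmic reticulum 18 of 22 genes had a higher estimate and 3 an unadjusted p under 0.05, with a median of 0.15, and 5 did without sedentary replicate 2 (median 0.20). Sel1l, a scaffold of the degradation of misfolded proteins, was at 174.1, 145.7, 173.6, 175.0 and 139.0 CPM in sedentary and 233.3, 176.1, 196.7, 208.8 and 188.2 CPM in running mice. Every running library lay above every sedentary one (log2 fold change 0.31, adjusted p = 0.232). Sel1l too was singled out after its values were seen. Groups were apart in that direction for 2 of these 22 genes, 1 of the 15 above and 1.09% of all genes. Calr and Hspa5, the most abundant of the list, had log2 fold changes of 0.32 and 0.19, with intervals that included 0.

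Immediate early genes, which respond to signals within minutes to hours, had mostly lower estimates in running mice. Of 21 tested 18 had a lower estimate (52.6% of all genes did) and 5 of them an unadjusted p under 0.05 (6.95% of all genes), or 4 without sedentary replicate 2 (median -0.44, -0.29 without sedentary replicate 2, and -0.57 to -0.13 over all fits that left out 1 vehicle library). The median of -0.13 was that without sedentary replicate 4. The mean log2 CPM of the list was 4.42 to 5.68 in sedentary libraries, highest in replicate 4, and 4.42 to 4.76 in running ones. All running libraries thus lay within the sedentary range. Only Ier3, an early response gene linked to cell survival, had groups that did not overlap, as did 0.921% of all genes in that direction. It was at 3.40, 4.0, 3.61, 5.11 and 5.30 CPM in sedentary mice and 1.84, 2.12, 2.48, 1.43 and 2.57 CPM in running mice (log2 fold change -1.03, SE 0.25, adjusted p = 0.205). Fos, the AP-1 subunit, was at 18.9, 33.9, 18.2, 118.3 and 10.7 CPM in sedentary and 9.69, 21.6, 13.8, 9.22 and 11.5 CPM in running mice, and sedentary replicate 4 alone held the value of 118.3 CPM. Myc, a growth regulator, was at 50.5, 30.0, 4.30, 5.99 and 4.24 CPM in sedentary mice and 3.17 to 12.9 CPM in running mice, with a high value in sedentary replicates 1 and 2 only. Fos and Myc were singled out after their values were seen. Zfp36 and Dusp1, the most abundant of the list, had log2 fold changes of 0.16 and 0.03, and of 0.07 and -0.08 without sedentary replicate 2.

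Markers of blood-borne and resident immune cells had lower estimates in running mice. All 5 tested members of the lymphocyte and neutrophil list (8 listed) had a lower estimate, 2 at an unadjusted p under 0.05 (6.95% of all genes) and 1 without sedentary replicate 2, with a median of -0.67 in both fits. The mean log2 CPM of the list was 0.67, 1.25, 1.25, 0.87 and 0.64 in sedentary and 0.17, 0.54, 0.08, 0.19 and 0.30 in running libraries, so the groups did not overlap. Among the many gene lists it was the only one whose groups were apart by this mean. Of its 5 genes 1 had groups apart, as had 0.921% of all genes in that direction. These are low counts: S100a9, a neutrophil gene, was at 1.74 to 4.78 CPM in sedentary and 0.535 to 1.5 CPM in running mice (log2 fold change -1.20, adjusted p = 0.277, and -0.83 without sedentary replicate 2, its highest library). Cd79a, of B cells, averaged 2.42 ± 0.943 CPM in sedentary and 1.52 ± 0.411 CPM in running mice (SD, n = 5). All 6 tested Kupffer cell and macrophage markers also had a lower estimate (median -0.26). Without sedentary replicate 2 it was 5 of 6, with a median of -0.16. The mean log2 CPM of that list was 4.82 to 5.40 in sedentary and 4.44 to 5.00 in running libraries, which overlapped. On the OC diet 4 of the 5 lymphocyte and neutrophil genes were higher and 1 lower (median 0.04), and all 6 macrophage markers were lower (median -0.22). The lymphocyte and neutrophil genes are short, with a median exonic length of 914 bases. With the length term all 5 were lower (median -0.59), 1 at an unadjusted edgeR p under 0.05 (7.88% of all genes). In bulk liver, fewer cells of a type and less RNA per cell cannot be told apart.

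The medians of several lists moved when sedentary replicate 2 was left out, and the cell cycle moved most. Of 37 cell cycle genes 36 had a lower estimate in running mice, with a median of -0.48, and sedentary replicate 2 was the highest of the 10 libraries for 33 of them. Without it 24 were higher and 13 lower, and the median was 0.23. The mean log2 CPM of the list was 3.59 in sedentary replicate 2, 1.5 to 1.83 in the other 4 sedentary libraries, 2.67 in running replicate 4 and 1.46 to 1.71 in the other 4 running ones. Of 21 extracellular matrix genes 19 had a lower estimate (median -0.48), and without that library the median was -0.05, with 8 higher and 13 lower. The interferon response went from -0.26 to -0.12, antioxidant enzymes and NRF2 targets from -0.16 to -0.03, ATF4 targets from -0.16 to -0.03, pericentral genes from 0.17 to 0.05, and the hypoxia response from -0.06 to 0.09. Single genes, chosen after their values were seen, showed the same: Mmp12 had a log2 fold change of -3.66 with all libraries and 0.21 without sedentary replicate 2, and Trem2, a receptor of lipid-associated macrophages, -1.35 and 0.35. For Cdkn1a, the cell cycle inhibitor p21, the order was the opposite, at 0.38 and 2.40 (unadjusted p = 0.0109 without the library).

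**Figure D5:**
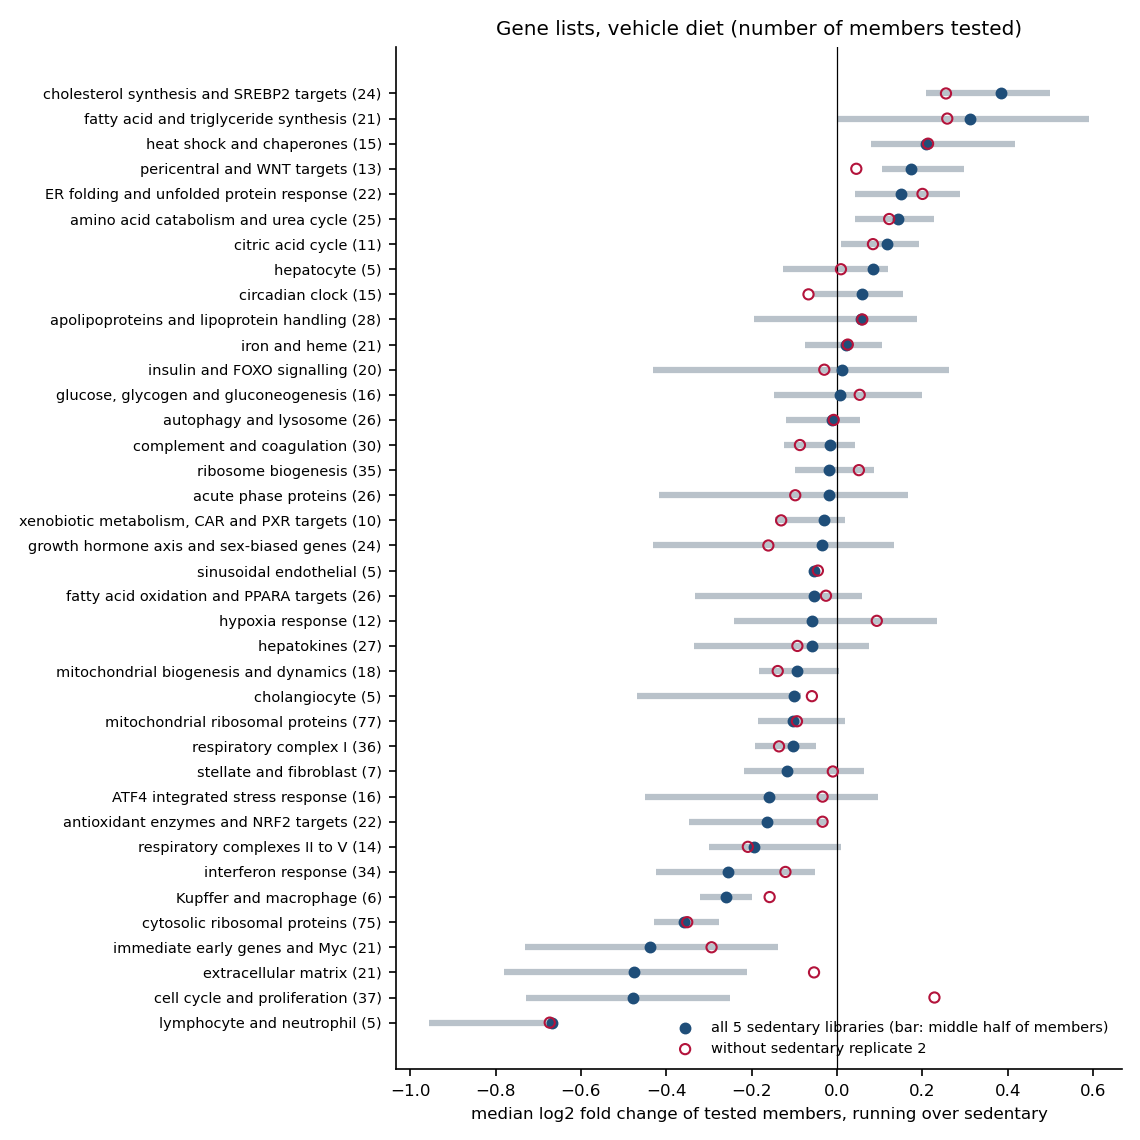
Median log2 fold change of running over sedentary on the vehicle diet for each gene list with at least 5 tested members (filled points, with bars from the lower to the upper quartile of the members) and the same without sedentary replicate 2 (open red circles); the number tested is in brackets. The ribosomal protein median stays at -0.36 and -0.35, the cell cycle median moves from -0.48 to 0.23 and the extracellular matrix median from -0.48 to -0.05.

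For the clock, the hepatokines and the liver's secreted proteins no difference passed the threshold. Clock, a core clock factor singled out after its values were seen, was at 19.7 to 32.3 CPM in sedentary and 28.3 to 49.2 CPM in running mice (log2 fold change 0.45, adjusted p = 0.277), and the median of 15 clock genes was 0.06 with 8 higher, and -0.07 with 5 higher without sedentary replicate 2. Arntl, its partner, was at 0.803 to 6.29 CPM in sedentary and 2.09 to 17.7 CPM in running mice (log2 fold change 1.16, 95% interval -0.02 to 2.34). Fgf21 (log2 fold change -0.54, and 0.25 without sedentary replicate 2), a fasting hepatokine, was at 5.39 to 9.67 CPM in 4 sedentary libraries, 34.7 CPM in sedentary replicate 2 and 5.86 to 14.8 CPM in running mice. Gdf15, a stress hepatokine, was at 37.7 to 282.0 CPM in sedentary and 64.0 to 110.1 CPM in running mice. Igf1, the growth hormone target, averaged 704.6 ± 103.1 and 818.1 ± 64.9 CPM (log2 fold change 0.22, 95% interval -0.03 to 0.46, and 0.14 without sedentary replicate 2). Alb had a log2 fold change of -0.13 with an interval of -0.43 to 0.16, and Apoe, the apolipoprotein E gene, 0.05 with an interval of -0.16 to 0.26 (0.01 without sedentary replicate 2). The NAD(P) transhydrogenase gene Nnt and the glutathione peroxidase gene Gpx1 had log2 fold changes of -0.06 and -0.09 (-0.01 and -0.12 without sedentary replicate 2). Their intervals were -0.26 to 0.15 and -0.35 to 0.17 with all libraries. Other genes of the panel lay on both sides of 0, with log2 fold changes of 0.46 for Srebf1, 0.20 for Lifr, 0.17 for Hamp, -0.02 for Per1, -0.08 for Saa1, -0.12 for Angptl4 and -0.55 for Igfbp1, and 0 of them passed the adjusted threshold in edgeR. Without sedentary replicate 2 Igfbp1 was at -0.19, Lifr at 0.07, Per1 at -0.09, Saa1 at -0.12 and Srebf1 at 0.32.

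Whether running acted differently on the 2 diets was tested by the interaction of diet and activity. In edgeR 0 of 10207 genes passed (0%), with a smallest adjusted p of 0.0995, and 1802 genes (17.7%) had an unadjusted p under 0.05. DESeq2 called 119, limma voom 0 (1740 at an unadjusted p under 0.05) and limma voom with sample weights 4. On the OC diet itself running gave 0 calls in edgeR, with 694 genes at an unadjusted p under 0.05 (6.8%). Of the 1414 genes at an unadjusted p under 0.05 on the vehicle diet 379 (26.8%) had the same sign on the OC diet, and of all genes 37.5% did. The libraries of these 2 comparisons are different mice, scaled and fitted together, and genes are not independent replicates.

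The 5 genes with the smallest adjusted interaction p were Pm20d2, Tpcn1, Egln1, Miga2 and Srd5a1. Egln1, the prolyl hydroxylase that senses oxygen, averaged 36.5 CPM in sedentary and 44.7 CPM in running mice on vehicle and 36.9 and 30.8 CPM on OC, a difference in log2 fold change of 0.55 (SE 0.11, adjusted p = 0.0995). Miga2, a mitochondrial outer membrane protein, averaged 63.7 and 76.6 CPM on vehicle and 69.0 and 52.5 CPM on OC (difference 0.66, adjusted p = 0.0995). Srd5a1, a steroid reductase, averaged 21.4 and 34.1 CPM on vehicle and 85.7 and 60.9 CPM on OC (difference 1.17, adjusted p = 0.141). Pm20d2 and Tpcn1 had differences of 1.61 and 0.77, and their levels on OC averaged 3.22 and 123.2 CPM in sedentary and 2.23 and 103.5 CPM in running mice. In each of these 5 genes the estimate was above 0 on vehicle and below 0 on OC, a pattern that picking by interaction p favours. No difference passed the threshold in edgeR.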

How the data were processed

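Liver RNA of 20 mice was sequenced from stranded paired-end libraries, per the labels' protocols. The submitters' processing notes name STAR, the build mm10, R 4.05 and limma. Which program did the counting, with which annotation and strand setting, is not given in the sources used here. As deposited, the values are estimated counts per gene with no scaling by the authors that the values show. 2 genes had values that were not whole, and were not used, so plain counts are possible. The planned design had assumed counts. Rounding changed no value used. Of 35504 lines 23993 (67.58%) were intact. The other 11511 were displaced or doubtful and were left out. They included 335 of 1188 listed genes. Of the fixed panel 22 of 30 genes were tested, and the erythroid, pancreatic acinar and skeletal muscle lists had 0 tested members.

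The test was run in edgeR 4.0.16 (R 4.3.3): filterByExpr, TMM, 1 mean per group over all 20 libraries, and the quasi-likelihood test with Benjamini-Hochberg adjustment at 0.05. log2 CPM used a prior count of 2. Adjusted p-values are edgeR's unless another tool is named. The steps were tested on simulated data. Named genes were called genes of at least 1 CPM, with a symbol that is no predicted-gene name and every running library on 1 side of the sedentary mean. As 0 qualified, the 20 smallest p under the same conditions were taken, with the panel, the 2 most abundant members of a list and the 5 smallest adjusted interaction p as values. Some of these genes are not reported here.

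The comparison, the 44 gene lists and the tests were chosen with earlier results of these data known. A list of 10 striated muscle genes was added after values were seen, of which 1 (Pygm) was tested, at a log2 fold change of 1.11. Lists are described by counts and medians without a test of the list, and a planned permutation test of summed marker levels was not run. Alternatives were leaving out each library, the 10 vehicle libraries alone, other filters and scaling, DESeq2 1.42.0 and limma 3.58.1 voom. After seeing the data a length term per library (loess, span 0.5, on GENCODE vM21 exonic length), and combinations without sedentary replicate 2, were added.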

Additional observations from a re-analysis of the deposited data

Results flagged for a closer look

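In 154 groups of 5 libraries (the named genes, the reported panel genes and the gene lists, each in sedentary and in running mice) the highest or lowest library was set against the other 4 by Dixon's test at 95% on the log2 scale. Chance alone flags about 1 group in 20. In 9 of the 154 groups 1 library lay apart, which is close to that share. Of these 4 were sedentary replicate 2. It was highest for Osbpl3 (38.2 CPM, others 4.50 to 8.13), highest for antioxidant enzymes and NRF2 targets (mean log2 CPM 7.85, others 7.30 to 7.4), lowest for complement and coagulation (8.75, others 9.0 to 9.03) and highest for the cell cycle (3.59, others 1.5 to 1.83). The cell cycle was also high in running replicate 4 (2.67, others 1.46 to 1.71). Sedentary replicate 5 was highest for respiratory complex I (7.37, others 6.93 to 7.04) and for complexes II to V (8.69, others 8.2 to 8.28). Running replicate 5 was highest for Mup20 (88.7 CPM, others 27.0 to 34.9) and lowest for ATF4 targets (4.21, others 4.43 to 4.48).

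For 13 pericentral genes, which mark hepatocytes around the central vein, every running library lay above the sedentary mean on the vehicle diet (mean difference 0.22 on the log2 scale) and every running library lay below it on the OC diet (-0.11). The difference between the diets was not tested for the list. Sedentary replicate 2 was at 5.13 and the other 4 sedentary libraries at 5.64 to 6.0, and without it the median log2 fold change of the list was 0.05 against 0.17 with it.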

How the results depend on the processing

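In edgeR the comparison of running with sedentary mice gave 0 calls when any 1 library was left out, with the 10 vehicle libraries alone (1155 genes, 11.7%, at an unadjusted p under 0.05), with library totals as the only scaling and with both other filters. The number of genes at an unadjusted p under 0.05 ran from 915 (without running replicate 4) to 1659 over the fits that left out 1 library, and was 922 without running replicate 1. DESeq2 called 42 genes, 5 of them list members and 19 of them named, and without sedentary replicate 2 it called 9, 6 of them named. One of the 9 was Pnlip, whose counts were nearly all in running replicate 5. The length term gave 2 calls (0.0196%), Tpcn1 (adjusted p = 0.0389), which is among the named genes (1 of 20), and Gm6135, and 0 without sedentary replicate 2. The interaction gave 0 to 2 calls when 1 library was left out, 2 without sedentary replicate 1 and 1 each without OC running replicate 2 or 4. It gave 119 in DESeq2. The 20 named genes kept their sign in all 420 values under 21 settings. They were picked by small p in the same libraries, so a change of sign was unlikely from the start and this is no test of them. Of 798 list medians 791 moved by less than the spread between libraries. The 791 include the cell cycle median without sedentary replicate 2, a library that itself widened the spread of that list. The count is therefore no measure of stability against leaving out that library. The cell cycle median turned from -0.48 to 0.23 without sedentary replicate 2 and to 0.29 without running replicate 2 as well, and the hypoxia median from -0.06 to 0.09 and 0.11. The cholangiocyte median was -0.58 without running replicate 3, against -0.10.

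Counts of a library limit genes under a few CPM, and the tested genes cover only intact lines. No paired analysis was possible because the labels give no pairing of mice between the groups. The labels also give no replicate numbers. Those used here were assigned within each group in the order of the samples in the series.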

Other observations

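Autophagy and lysosome genes showed values in both directions. Of 26 tested, Hexa among them, 2 were higher and 2 were lower at an unadjusted p under 0.05 (median log2 fold change -0.01). That is near the share of all genes, of which 6.91% were higher and 6.95% lower. Ulk2, an autophagy kinase, was at 47.2 to 71.6 CPM in sedentary and 75.1 to 94.3 CPM in running mice, without overlap. Its log2 fold change was 0.36, and 0.27 without sedentary replicate 2. Groups were apart in that direction for 1 of the 26 genes and for 1.09% of all genes. Tfeb, a regulator of lysosomal genes, averaged 12.7 ± 1.16 and 15.2 ± 1.72 CPM. The 2 most abundant genes of the list, Ctsb and Lamp1, had log2 fold changes of 0.02 and -0.02 (0.06 and 0.01 without sedentary replicate 2). Ulk2 and Tfeb were singled out after their values were seen, and 0 of them passed the adjusted threshold in edgeR or DESeq2.

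Amino acid catabolism and the urea cycle had 19 of 25 genes with a higher estimate in running mice (median 0.14, and 0.12 without sedentary replicate 2), 3 of them at an unadjusted p under 0.05 (6.91% of all genes) and 0 without that library in edgeR. Ass1 and Cps1, enzymes of the urea cycle, had log2 fold changes of 0.22 and 0.12 with intervals that included 0, and of 0.21 and 0.01 without it. In the citric acid cycle 9 of 11 were higher (median 0.12, and 0.08 without that library), 2 of them at an unadjusted p under 0.05 and 0 without that library in edgeR. Cs, citrate synthase, was at 96.9 to 146.3 CPM in sedentary and 109.0 to 187.2 CPM in running mice (log2 fold change 0.36, and 0.28 without it), and Mfn2, which fuses mitochondria, averaged 133.1 ± 26.2 and 170.7 ± 21.3 CPM with overlapping libraries. Selenop, the selenium carrier of plasma, averaged 20165.2 ± 2777.9 CPM in sedentary and 16037.7 ± 2659.3 CPM in running mice (log2 fold change -0.33, adjusted p = 0.335 in edgeR). Cs, Mfn2 and Selenop were singled out after their values were seen.

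Npm1, a nucleolar protein of ribosome assembly, was at 258.2, 233.6, 213.0, 241.3 and 304.6 CPM in sedentary and 162.3, 206.5, 177.1, 166.6 and 222.4 CPM in running mice, and running replicate 5 overlapped the sedentary range (log2 fold change -0.42, adjusted p = 0.205 in edgeR and 0.0451 in DESeq2). In DESeq2 without sedentary replicate 2 the adjusted p was 0.0844. Npm1 too was singled out after its values were seen. The list of ribosome biogenesis genes it belongs to had no common direction: of the 35 tested 15 had a higher and 20 a lower estimate, with a median of -0.02, and without sedentary replicate 2 there were 22 and 13, with a median of 0.05.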
